A study of Mus musculus with 4 samples.

Results

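Vascular smooth muscle cells (VSMCs) were represented by 50 of the 10067 cells that passed a barcode filter, of 12487 cells deposited for the series. A barcode passed with at least 400 detected genes and at most 20% of its unique molecular identifiers (UMIs, each 1 captured mRNA molecule) from mitochondrial genes. The 50 cells were chosen by their own readout. A cell had to show at least 3 of Acta2, Tagln, Myl9, Myh11 and Tpm2, with at least 2 of them other than Myl9, and could show at most 2 of 4 endothelial, 1 of 3 glial and 2 of 4 fibroblast markers.

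Each of the 4 libraries came from the whole brain of 1 male C57BL/6J mouse of age P90. All 4 brains were dissociated with enzymes, without a sort, so a VSMC reached the library only if it left the vessel wall during digestion. In 2 animals no inhibitors were used, and in the other 2 a cocktail of transcription inhibitors (actinomycin D and triptolide) with the translation inhibitor anisomycin was present while the tissue was handled. Meninges were removed as far as possible, and every sample carries the same batch label. The comparison asks which transcripts in these cells differ with the whole cocktail, and blocked transcription and blocked translation cannot be told apart in it.

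VSMCs wrap arteries, arterioles and venules and set vessel diameter by contracting. Calcium activates myosin light chain kinase, which phosphorylates the regulatory light chain so that smooth muscle myosin pulls on alpha smooth muscle actin, and the nitric oxide and cyclic nucleotide pathways oppose it. Pericytes, the mural cells of capillaries, share many of their genes with VSMCs but carry less of the contractile apparatus. Immediate-early genes such as Fos and Junb are transcribed within minutes of a stimulus without new protein synthesis, and their mRNAs decay quickly.

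The animals without inhibitors gave 9 and 18 VSMCs and the animals with inhibitors gave 13 and 10. These were 0.401% (exact 95% binomial interval 0.183 to 0.759), 0.639% (0.379 to 1.01), 0.612% (0.326 to 1.04) and 0.348% (0.167 to 0.639) of the passing cells, intervals that cover counting error only. The mean share was 0.520% ± 0.168 without and 0.480% ± 0.187 with inhibitors (SD, n = 2 animals each). The groups overlapped and the difference of 0.0398 percentage points was within the spread between animals (exact two-sided permutation test, p = 0.667, smallest possible p = 0.33). Among mural cells, counted as VSMCs plus pericyte-gated cells, VSMCs made up 24.3% and 29.0% without and 27.1% and 17.9% with inhibitors. The pericyte-gated comparison class held 153 cells and the endothelial-gated class 1572 cells, each chosen by marker genes and excluding the 50 cells.

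The 50 cells held 112890 UMIs, with 20193 and 42837 in the animals without and 27844 and 22016 in the animals with inhibitors. The median cell had 2071 UMIs against 1051 UMIs for the median pericyte-gated cell, and the range was 606 to 5776. The whole libraries held between 5134359 and 7529804 UMIs, and between 9 and 13 barcodes were shared by any pair of libraries, none of them a VSMC. All 5 rule genes were detected in 36 cells, 4 in 7 cells and 3 in the 7 cells closest to the threshold. Just outside it, 100 passing cells showed exactly 2 rule genes, of which 35 met the endothelial gate and 27 the pericyte gate. A further 11 cells failed the barcode filter, and 64 were excluded by other markers, 60 of them by endothelial ones. A doublet score marked 206 passing cells, of which 1 was a VSMC, from the second animal with inhibitors.

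The rule genes did not lead in every one of the 50 cells. This is a description and no independent check of the label, since the same genes chose the cells. In 36 cells the summed UMIs of the 5 rule genes exceeded those of every marker list of another cell type (8 and 13 cells without, 8 and 7 with inhibitors). Pericyte markers led in 10 cells (1 and 2 without, 4 and 3 with inhibitors), endothelial markers in 2 cells and ependymal markers in 2 cells, both of the latter in the second animal without inhibitors. The ependymal list was added after the cells had been inspected. The rule genes took 11.1 to 69.4 UMIs per 1000 in the cells they led, against 4.42 to 13.2 in the pericyte-led cells, 3.67 and 8.10 in the endothelial-led cells and 1.17 and 2.72 in the ependymal-led cells. Among the defining pericyte genes Kcnj8, Abcc9, Higd1b and Atp13a5, 16 cells showed none, 27 cells showed 1 and 7 cells showed 2 or more. The endothelial cadherin Cdh5 and the fibroblast genes Dcn and Lum, which the rule limited, were at 0 in all 50 cells. Of the other markers it limited, 12 cells showed 1 endothelial marker and 3 cells showed 2, while 7 cells showed a glial and 1 a fibroblast marker. In the longer lists 13 of 14 endothelial and 5 of 12 fibroblast markers had a UMI. Among genes the rule did not use, the fibroblast genes Igf2 and Col6a1 also had no UMI, and the endothelial gene Ly6c1 had 23 UMIs in 11 cells. Microglial genes were low except in the second animal with inhibitors, where they summed to 2407 CPM (counts scaled to a common total) against 446, 420 and 71.8 CPM in the other animals, 46 of these UMIs coming from a single pericyte-led cell. Each result below is therefore also given for the 36 cells led by the rule genes wherever its call or direction changed. This set of cells was defined after the data had been seen. Its choice used the UMIs of pericyte markers such as Vtn and Rgs5, so it cannot test those markers.

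**Figure D1:**
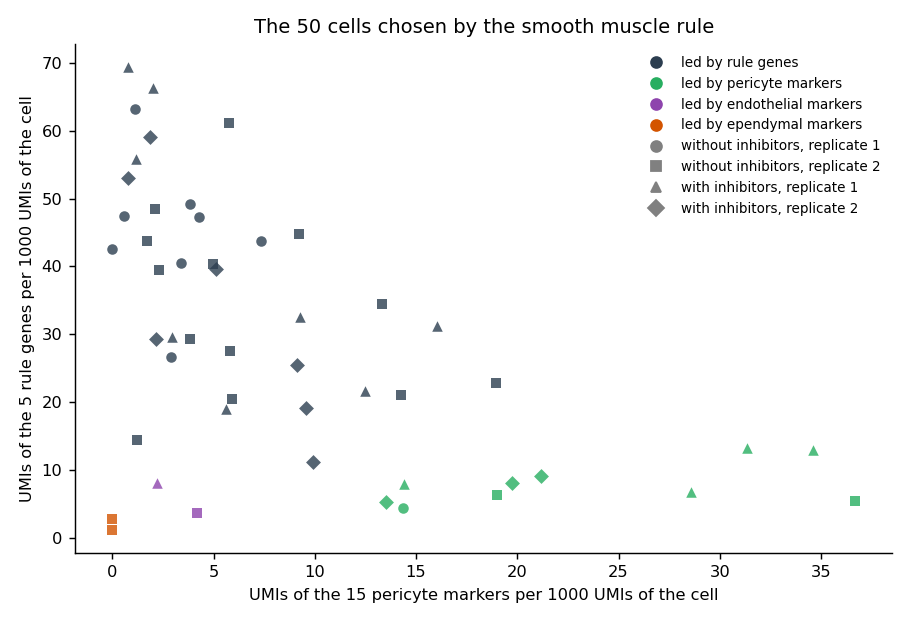
Each point is 1 of the 50 cells, placed by the UMIs of 15 pericyte markers (horizontal axis) and of the 5 rule genes (vertical axis), both per 1000 UMIs of the cell, with colour for the marker list that led the cell and shape for the library. The 36 cells led by the rule genes lie at 11.1 or above on the vertical axis, and the 10 pericyte-led cells at 13.2 or below.

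Levels were expressed as CPM of the UMIs summed over the VSMCs of an animal. They describe the chosen cells, and those of the rule genes were not tested, because the rule used these transcripts. Acta2 (alpha smooth muscle actin, chromosome 19, 34241090 to 34255590, minus strand, GRCm38) stood at 18175 and 11462 CPM without and 11816 and 12355 CPM with inhibitors, against a mean of 23.98 CPM in pericyte-gated, 111 CPM in endothelial-gated and 31.2 CPM in all other cells. Tagln (transgelin, an actin-binding protein of smooth muscle) stood at 7527 and 5229 CPM without and 5567 and 6768 CPM with inhibitors, and had no UMI in the pericyte-gated cells, a class that excludes any cell meeting the rule. Myl9, the regulatory light chain, was less selective, with 10994 and 7167 CPM without and 9266 and 7585 CPM with inhibitors beside a mean of 2312 CPM in pericyte-gated cells. Myh11, the smooth muscle myosin heavy chain, stood at 2278, 1377, 2370 and 1363 CPM in the same order of animals, and Tpm2, a tropomyosin, at 4705, 2638, 3160 and 2862 CPM. In each of these 5 genes the values of the 2 groups overlapped.

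Some genes outside the rule followed the same division, while Rgs4, Aspn and Gm13861 were also high in pericyte-gated cells. After the 5 rule genes, the 15 genes with the largest ratio of mean CPM in VSMCs over all other passing cells were Pln, Mustn1, Mylk, Crip1, Des, Lmod1, Palld, Aspn, Sncg, Rgs4, Hspb2, Pde3a, Mcam, Gm13861 and Flna, among 1100 genes detected in at least 25% of the cells. Pln (phospholamban, the inhibitor of the calcium pump of the sarcoplasmic reticulum) stood at 1061 ± 180 CPM (SD, n = 4 animals), with 8.78 CPM in pericyte-gated cells, and was detected in 31 of 50 cells. Mylk, the myosin light chain kinase, stood at 2187 ± 479 CPM with 211 CPM in pericyte-gated cells. Lmod1 (leiomodin, an actin filament nucleator) stood at 486 ± 208 CPM with 7.45 CPM in pericyte-gated cells. Palld (palladin, an actin cross-linker) stood at 716 ± 215 CPM with 4.68 CPM in pericyte-gated cells, and Sncg (gamma-synuclein) at 1221 ± 371 CPM with 23.2 CPM there.

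Against pericyte-gated cells alone the 20 largest ratios belonged to Tagln, Acta2, Pln, Palld, Myh11, Sncg, Lmod1, Pdlim3, Fos, Tpm2, Gpr20, Gsn, Nexn, Smim5, Mustn1, Ppm1l, Nrip2, Map1b, Vim and Csrp2. Other enriched genes were also high in pericyte-gated cells. Rgs4, a regulator of G-protein signalling, stood at 1410 ± 237 CPM in VSMCs and 1143 CPM in pericyte-gated cells, and Aspn (asporin, a small matrix proteoglycan) at 608 ± 229 and 421 CPM. Fos was the only immediate-early gene of these lists, at 1077 ± 1330 CPM over the 4 animals. Over the 50 cells the rule genes and Rgs5, Vtn and Higd1b, each per 1000 UMIs, had a Spearman correlation of -0.48, given as a description since cells of a library share its depth and free RNA and the rule genes set membership.

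**Figure D2:**
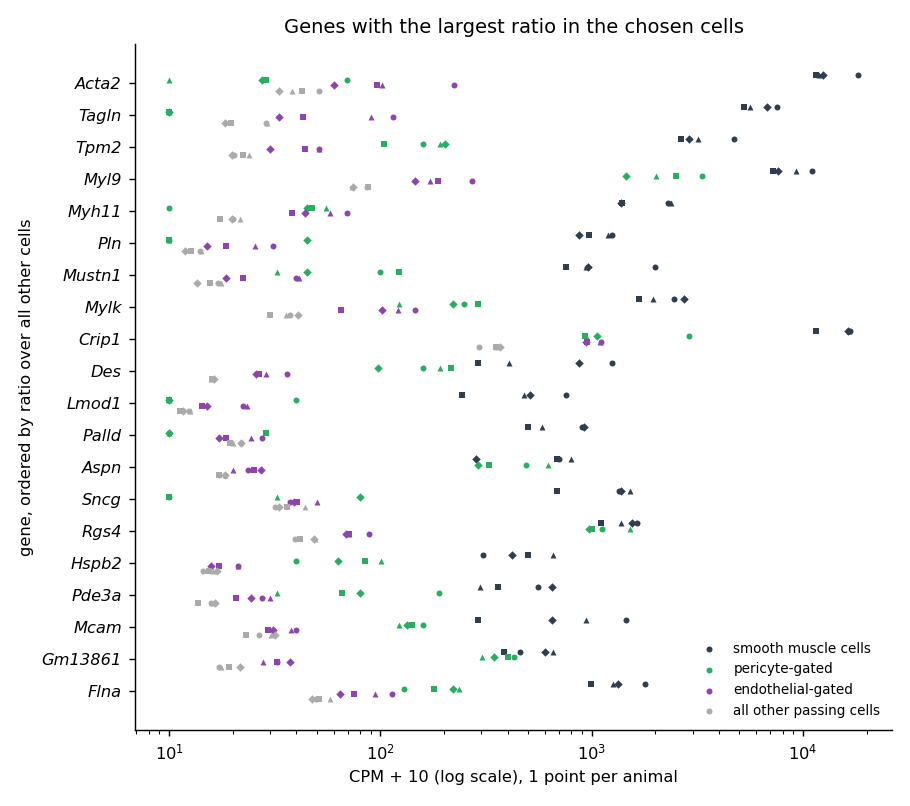
Each row is 1 of the 20 genes with the largest ratio over all other cells, and each point is the CPM of 1 animal plus 10 on a log scale, coloured by cell class, with marker shape for the animal as in the plot of single cells. Acta2 lies at 11462 CPM or above in the VSMCs of all 4 animals, whereas Rgs4, Aspn and Gm13861 lie close together in VSMCs and pericyte-gated cells.

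The promoter of Myl9 is shown because its window held an exact CArG box. No other window available for the 20 most enriched genes held an exact match. The CArG box is the binding motif of serum response factor, the textbook activator of contractile genes. RefSeq windows on GRCm38.p6, from 250 bases before to 50 bases after the annotated start, existed for 16 of the 20 genes in 18 windows, and the CArG box was found in 1.63% of all 32851 windows. The Myl9 window is chr2:156775214-156775513, plus strand, with the box in capitals at 161 bases before the start.
Myl9: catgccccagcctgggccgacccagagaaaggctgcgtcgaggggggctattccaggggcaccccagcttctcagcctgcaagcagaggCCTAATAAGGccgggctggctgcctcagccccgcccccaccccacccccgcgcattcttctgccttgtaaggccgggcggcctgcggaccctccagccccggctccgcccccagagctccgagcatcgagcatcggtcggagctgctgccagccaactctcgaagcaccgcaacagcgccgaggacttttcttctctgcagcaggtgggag
The Acta2 window (chr19:34255324-34255623, minus strand) held no exact match of the box. It did hold the near matches ccctatatgg and ccttgtttgg, which the search did not count. Tagln and Myh11 had no window, so the search does not show which of these genes lack the box.

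Receptors, channels and matrix genes of VSMCs were detected at lower counts. Notch3, the receptor of mural cells mutated in the small vessel disease CADASIL, stood at 446 and 467 CPM without and 647 and 727 CPM with inhibitors, with a mean of 391.5 CPM in pericyte-gated cells. Ednra, the endothelin A receptor, stood at 248, 187, 180 and 182 CPM, and Npy1r, a neuropeptide Y receptor, at 99.0, 303, 108 and 272 CPM beside a pericyte mean of 25.6 CPM. The angiotensin receptor Agtr1a and the adrenergic receptors Adra1a, Adra1b, Adra1d and Adra2a had no UMI in the 112890 captured. Among channels, the potassium channel gene Kcna5 stood at 99.0, 233, 108 and 45.4 CPM beside a pericyte mean of 4.68 CPM, whereas Kcnj8, the ATP-sensitive potassium channel of pericytes, had 2 UMIs in all 50 cells and a pericyte mean of 1203 CPM. Ramp1, a subunit of the CGRP receptor, stood at 792, 280, 287 and 227 CPM. The matrix genes Sparcl1 and Mfge8 were measured in most cells, Sparcl1 at 4655, 2358, 2191 and 2589 CPM and Mfge8 at 1288, 1307, 1903 and 1363 CPM.

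Fos was the single gene that passed the test between animals without and with inhibitors. UMIs were summed per animal, and edgeR's quasi-likelihood test with Benjamini-Hochberg adjustment was applied to the 360 genes that passed its filter on low counts and held 52.6% of the UMIs. A gene was called at an adjusted p below 0.05 and a log2 fold change beyond 0.58. With 1 gene called higher without inhibitors the call rate was 0.278% of the genes tested, and with 0 called lower it was 0.0%. At an unadjusted p below 0.05, 16 genes were higher and 10 lower, and DESeq2 called 2 genes, Fos and Junb. The median log2 fold change of all tested genes was 0.0067.

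Fos (the AP-1 subunit c-Fos, chromosome 12, 85473890 to 85477273, plus strand) stood at 2872 and 1284 CPM without inhibitors and at 108 and 45.4 CPM with inhibitors, from 58, 55, 3 and 1 UMIs. Both animals without inhibitors lay above both animals with them. The log2 fold change was 4.58 ± 0.62 (SE, edgeR, n = 2 per group, adjusted p = 0.0485). Fos UMIs came from 6 of 9 and 6 of 18 cells without inhibitors and from 2 of 13 and 1 of 10 cells with them, and the single highest cell gave 25 of the 58 and 21 of the 55 UMIs. Of the 15 cells with a Fos UMI, 14 were among the 36 cells led by the rule genes and none among the 10 led by pericyte markers. Only 1 and 2 of these 10 cells came from the animals without inhibitors, against 4 and 3 with them. They were also shallower, with a median of 1443 UMIs against 2378.5, so the count does not tie Fos to 1 kind of cell. Within the 36 cells the log2 fold change was 4.40 ± 0.52 (SE, edgeR, adjusted p = 5.25e-14), so its size and SE moved little while the p-value fell. The call was lost when the 1 scored doublet was left out (4.51, adjusted p = 0.126) and under a stricter barcode filter that left 24 cells (57 and 32 UMIs without and 0 and 0 with inhibitors, adjusted p = 0.169), and was kept in 13 of 15 alternatives.

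Junb (the AP-1 subunit JunB, chromosome 8, 84974484 to 84978718, minus strand) stood at 1733 and 467 CPM without and 71.8 and 90.8 CPM with inhibitors, from 35, 20, 2 and 2 UMIs. Btg2, an antiproliferative cofactor of mRNA deadenylation (chromosome 1, 134075170 to 134079120, minus strand), stood at 1684 and 560 CPM without and 251 and 90.8 CPM with inhibitors. In both genes the groups did not overlap, as in 14.2% of all tested genes in this direction and 20.3% in the other. Neither passed the adjusted threshold over the 50 cells (Junb log2 fold change 3.57 ± 0.84 SE, Btg2 2.52 ± 0.69 SE, both adjusted p = 0.436 by edgeR). Over the 36 cells led by the rule genes both passed it, Junb at 3.39 ± 0.61 SE (adjusted p = 9.1e-06) and Btg2 at 2.69 ± 0.54 SE (adjusted p = 8.34e-05). The calls there were Fos, Junb, Btg2 and the nuclear noncoding RNA Malat1. The sizes moved little from those over the 50 cells. The test pools spread over genes, so p-values this small do not measure the spread between the 2 animals of a group. Fos and Junb were found together in 6 of 9 and 5 of 18 cells without inhibitors and in 1 of 13 and 1 of 10 cells with them.

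**Figure D3:**
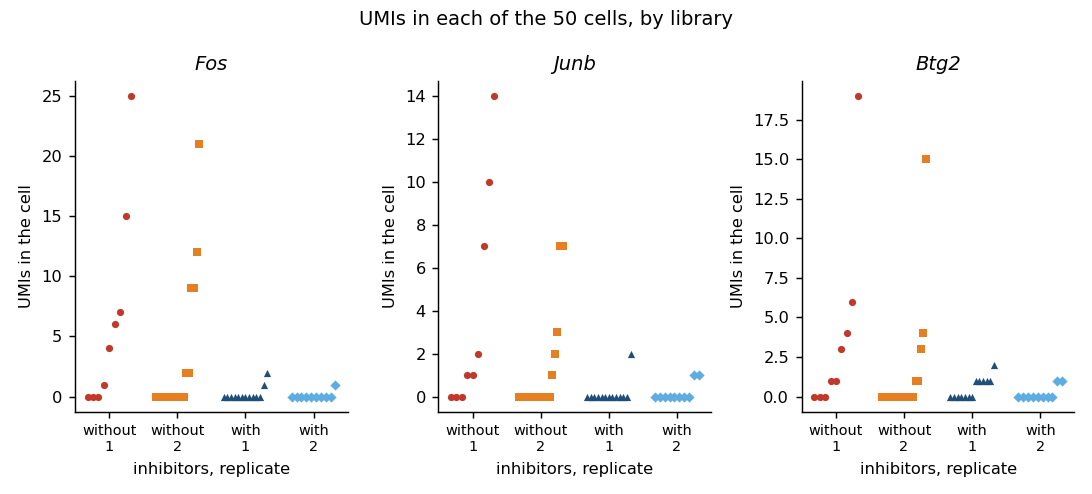
Each point is 1 of the 50 cells, with its UMIs of Fos, Junb or Btg2 on the vertical axis and the 4 libraries along the horizontal axis, cells sorted by count within a library. Fos reaches 25 and 21 UMIs in the highest cells without inhibitors and at most 2 UMIs in any cell with them, while most cells of the second animal without inhibitors hold none.

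The promoters of the 3 genes are shown because each held TGACG, the core of the cyclic AMP response element, through which CREB family factors are known to act on immediate-early genes. The core was found on either strand in 20.8% of all RefSeq windows and in 7 of the 12 windows available for 14 activation genes, and the full palindrome TGACGTCA in 1.79% of all windows. The windows are chr12:85473640-85473939, plus strand, for Fos, chr8:84978699-84978998, minus strand, for Junb and chr1:134079106-134079405, minus strand, for Btg2. Capitals mark the core, and in Btg2 the palindrome, which holds the core on both strands.
Fos: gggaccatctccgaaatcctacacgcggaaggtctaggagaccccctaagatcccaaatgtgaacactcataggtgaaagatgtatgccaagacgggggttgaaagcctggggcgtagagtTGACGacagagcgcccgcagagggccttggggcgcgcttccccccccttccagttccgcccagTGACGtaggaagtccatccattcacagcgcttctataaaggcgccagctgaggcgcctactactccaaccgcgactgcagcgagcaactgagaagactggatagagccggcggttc
Junb: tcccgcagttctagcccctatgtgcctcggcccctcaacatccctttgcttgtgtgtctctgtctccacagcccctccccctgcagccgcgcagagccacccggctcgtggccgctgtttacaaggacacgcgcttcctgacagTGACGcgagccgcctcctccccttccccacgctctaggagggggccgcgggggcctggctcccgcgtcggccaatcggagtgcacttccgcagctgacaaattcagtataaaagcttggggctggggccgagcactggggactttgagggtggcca
Btg2: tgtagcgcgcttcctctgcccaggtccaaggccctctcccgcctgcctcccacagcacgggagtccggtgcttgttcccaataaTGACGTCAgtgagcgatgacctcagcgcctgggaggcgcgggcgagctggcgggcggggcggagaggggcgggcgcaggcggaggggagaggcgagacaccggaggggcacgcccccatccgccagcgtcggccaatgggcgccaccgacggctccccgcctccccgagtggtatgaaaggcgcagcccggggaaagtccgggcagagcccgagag
The matches begin 129 and 66 bases before the start in Fos, 106 in Junb and 166 in Btg2.

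Other activation genes had too few UMIs for the test. Jun, the partner of c-Fos, stood at 495 and 210 CPM without and 0 and 45.4 CPM with inhibitors, from 10, 9, 0 and 1 UMIs. Klf2, a Kruppel-like factor best known from endothelium, stood at 990 and 303 CPM against 144 and 136 CPM, but 18 of the 20 UMIs of the first animal came from 1 cell. Zfp36, which promotes decay of AU-rich mRNAs, stood at 446 and 233 CPM against 0 and 136 CPM, and Ier2 at 396 and 140 CPM against 108 and 45.4 CPM. Nr4a1, an orphan nuclear receptor, stood at 297 and 93.4 CPM against 0 and 45.4 CPM. Egr1 had 5 UMIs, all in the first animal without inhibitors, and Atf3 had 1. Socs3 had 3 UMIs in each animal without inhibitors and 0 in the others. Dusp1, a phosphatase of MAP kinases, overlapped at 297 and 420 CPM against 323 and 136 CPM. The heat shock gene Hspa1a had UMIs only with inhibitors, 3 and 1. Klf4 had 0, 2, 0 and 1 UMIs and Smad6 had 1, 1, 0 and 1. None of these genes was called when the filter on low counts was dropped, where the lowest adjusted p among them was 0.293, for Jun.

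**Figure D4:**
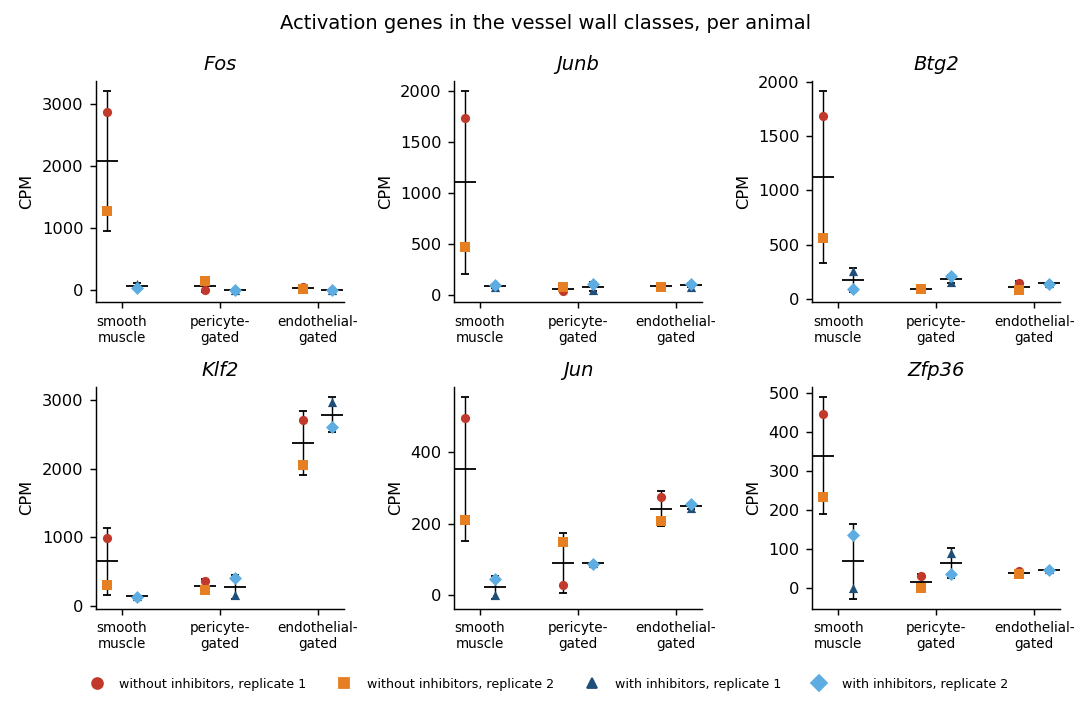
Each panel plots the CPM of 1 gene per animal in VSMCs, pericyte-gated and endothelial-gated cells, with the horizontal bar at the mean and the error bar at ± 1 SD of the 2 animals of a group. Fos, Junb and Btg2 are higher in the VSMCs of both animals without inhibitors than of both with them, whereas Klf2 is highest in endothelial-gated cells of both groups.

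The study's activation list of 25 genes, taken from sorted microglia of other animals, summed to 8468 and 5416 CPM in VSMCs without and to 1939 and 2089 CPM with inhibitors. In pericyte-gated cells the same list summed to 1908 and 2808 CPM without and 2369 and 2247 CPM with inhibitors, and in endothelial-gated cells to 5214 and 4310 against 5561 and 5353 CPM. Only 2 of its genes could be tested in VSMCs, Fos and Junb, with 1 called and a median log2 fold change of 4.07. Of 41 immediate-early and stress genes 5 could be tested, 1 was called, and 4 lay higher in both animals without inhibitors, as did 14.2% of all tested genes. The others of these 5 were Hspb1, at 1486 and 980 against 970 and 727 CPM, and Hspa8, at 1139 and 1704 against 1042 and 1726 CPM, both heat shock proteins. A gene that is high in 1 group alone could pass the filter through that group, so these counts do not weigh for the list as a whole.

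Fos was also compared at a common depth. After each cell was thinned to 1000 UMIs, without the cells below that depth (2 and 2 without, 1 and 1 with inhibitors), Fos was detected in 6 of 7 and 5 of 16 VSMCs without and in 2 of 12 and 1 of 9 VSMCs with inhibitors. In percent these shares were 85.7 and 31.3 against 16.7 and 11.1, and unthinned 66.7 and 33.3 against 15.4 and 10.0. The groups did not overlap, and the difference of 44.6 percentage points reached the smallest p that 2 animals against 2 allow (exact two-sided permutation test, p = 0.33). It was 17.4 points without the first animal lacking inhibitors and 71.8 points without the second. Endothelial-gated cells thinned alike gave 2.68%, 1.39%, 0% and 0.620% and pericyte-gated cells 0% in all 4 animals, where the unthinned median depth was 1051 UMIs. This thinning left out 14 and 20 pericyte-gated cells without and 15 and 22 with inhibitors. In the second animal without inhibitors Fos was found in 2.27% of the unthinned pericyte-gated cells, and in 12.5% of the 8 cells thinned to 1500 UMIs. In the other animals both shares were 0%. Junb at this depth was found in 71.4% and 25% against 8.33% and 0% of VSMCs, a difference of 20.8 to 67.3 points when 1 animal was left out. UMIs of the activation list averaged 9.86 and 5.50 per VSMC without and 1.92 and 2.00 with inhibitors, a difference of 3.54 to 7.90 when 1 animal was left out, beside 1.79 to 2.70 per pericyte-gated and 4.42 to 5.88 per endothelial-gated cell.

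No contractile gene outside the rule passed the test. Of 30 contractile genes 17 were tested, 5 of them rule genes, on whose detection the cells were chosen and whose fold changes are not read here. Of the other 12, none was called by edgeR, none had an unadjusted p below 0.05, and none was separated between the groups in either direction. Of all 360 genes tested, 0.278% were called and 26 genes had an unadjusted p below 0.05. Of the same 360 genes, 14.2% lay higher and 20.3% lower in both animals without inhibitors. The median log2 fold change of the 12 was -0.0092 with a range of -0.26 to 0.53. Genes of the list that the filter dropped are not covered by this. Among these, Synm stood at 347 and 420 CPM without and 71.8 and 45.4 CPM with inhibitors, from 7, 18, 2 and 1 UMIs. It was not called without the filter (log2 fold change 2.72, adjusted p = 0.423 by edgeR). Cnn1 went the other way, with 4 and 3 UMIs without and 12 and 5 with inhibitors. Myl6, the essential light chain, stood at 8617 and 6116 CPM without and 8188 and 8494 CPM with inhibitors (-0.17 ± 0.24 SE, adjusted p = 0.992). The whole list, rule genes included, summed to 71659 and 45778 CPM without and to 56637 and 54233 CPM with inhibitors. This sum describes the chosen cells and is not read as a comparison of the groups, since the rule used 5 of its genes. Of the ion channel list 4 of 26 genes were tested and none was called, with a median of -0.40. Among them Pln was at 0.09 and Atp2a2, the calcium pump it inhibits, at -0.25. Of the vasoactive list 5 of 35 genes were tested, none was called and the median was -0.56. Of the transcription and Notch list 2 of 26 were tested, Mef2c at 0.01 and Notch3 at -0.53, and of the matrix list 9 of 33, with a median of -0.03. From the BMP and TGF-beta list only Id3 could be tested, at -0.03. The SE of the genes named from these lists ran from 0.24 to 0.49 on the log2 scale. These values are no detection limit, since with 2 animals per group far larger differences could go uncalled. Btg2, at a log2 fold change of 2.52 ± 0.69 SE, was not called.

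**Figure D5:**
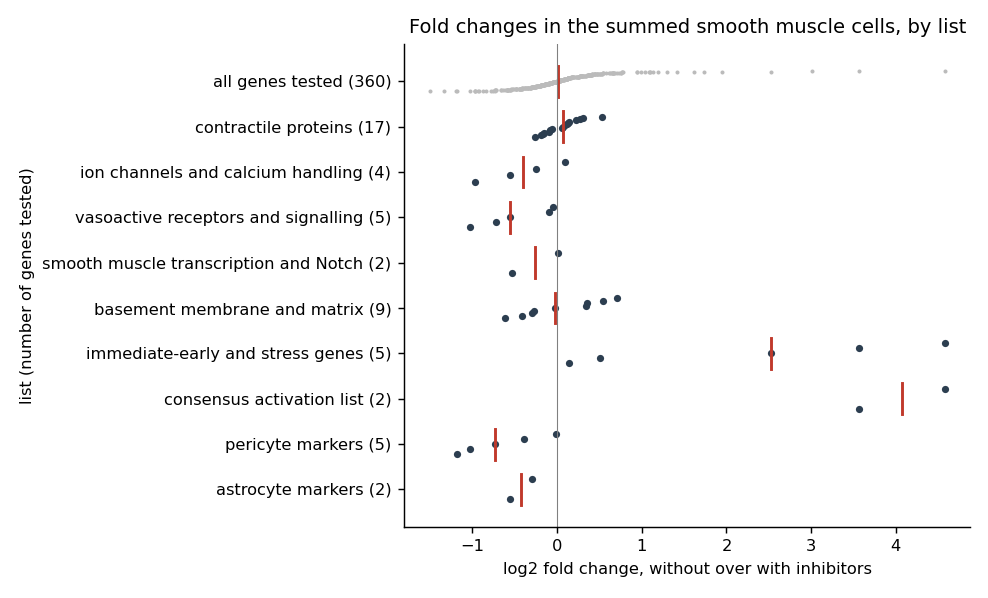
Each point is the log2 fold change, without over with inhibitors, of 1 gene tested in the summed VSMCs, grouped by gene list, with the red line at the median and the number of genes tested in parentheses. The 17 contractile genes centre at 0.06, but 5 of them are rule genes that chose the cells. The 12 others centre at -0.0092 beside 0.0067 for all 360 genes, and the only values above 3.5 are Fos and Junb.

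Pericyte markers differed in the opposite direction to Fos without passing the test. The 15 markers summed to 3467 and 6280 CPM without and to 10272 and 8403 CPM with inhibitors, so the groups did not overlap. Of 5 tested, none was called, 3 lay lower in both animals without inhibitors (20.3% of all tested genes did), and the median log2 fold change was -0.73. Vtn (vitronectin, a plasma and matrix glycoprotein made by brain pericytes) stood at 495 and 1027 CPM without and at 2011 and 1817 CPM with inhibitors (-1.19 ± 0.37 SE, adjusted p = 0.436). Rgs5, another regulator of G-protein signalling, stood at 1089 and 2264 against 4417 and 2952 CPM (-1.03, adjusted p = 0.575). In the 36 cells led by the rule genes Rgs5 was still lower at -0.69, whereas Vtn was at 0.11, Higd1b at 0.05, Ndufa4l2 at 0.56 and Slc38a11 at 0.45. The UMIs of these same markers helped to choose the 36 cells, so the values there are a description and no test. Pericyte-led cells numbered 1 and 2 without and 4 and 3 with inhibitors, and of the 150 Vtn UMIs 10 and 18 without and 13 and 7 with inhibitors fell in cells led by the rule genes.

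RNA of other cells also moved with the groups in places. Haemoglobin transcripts summed to 297 and 654 CPM without and 35.9 and 90.8 CPM with inhibitors in VSMCs, and to 14002 and 19518 against 3593 and 5814 CPM in all other cells. Ttr, a choroid plexus transcript that marks free RNA, was found in 48 of 50 VSMCs at 1733, 2498, 1616 and 1817 CPM. Endothelial markers summed to 446 and 1050 CPM without and 826 and 1272 CPM with inhibitors, and fibroblast markers to 99.0 and 163 against 431 and 182 CPM. The median mitochondrial share per VSMC was 8.83% and 9.79% without and 8.50% and 11.1% with inhibitors. Their part in the Fos, Junb and Btg2 values was not tested.

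The effect of the inhibitors was then compared between VSMCs and the other vessel classes, with the difference itself tested as a class by group interaction in edgeR. Against pericyte-gated cells 2 of 833 genes (0.24%) differed. The Btg2 effect was 3.46 ± 0.84 (SE) larger on the log2 scale in VSMCs (adjusted p = 0.0245), pericyte-gated cells standing at 89.4 and 93.6 CPM without and 158 and 211 CPM with inhibitors. The Vtn effect was lower by -1.55 ± 0.34 (adjusted p = 0.00656), pericyte-gated cells standing at 14370 and 15330 CPM without and 15162 and 9498 CPM with inhibitors. Neither was called with the 36 cells led by the rule genes, where Btg2 kept its size (3.53, adjusted p = 0.052) and Vtn did not (-0.22, adjusted p = 0.994). Vtn UMIs helped to choose the 36 cells, so the Vtn value there is no test. Both calls were also lost with no filter on low counts and when 1 of 3 animals was left out. Without the first animal lacking inhibitors the values were 2.69 (adjusted p = 0.669) for Btg2 and -1.17 (adjusted p = 0.878) for Vtn. Without the second they were 4.24 and -2.21 (both adjusted p = 0.0628), and without the second animal with inhibitors 2.70 (adjusted p = 0.454) and -1.33 (adjusted p = 0.0582).

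Against endothelial-gated cells 4 of 7466 genes (0.0536%) differed. The Junb effect was 3.70 ± 0.74 (SE) larger on the log2 scale in VSMCs (adjusted p = 0.00171), and the Btg2 effect 2.91 ± 0.59 larger (adjusted p = 0.00171). Endothelial-gated Junb stood at 83.4 and 77.2 CPM without and 75.5 and 105 CPM with inhibitors, with no difference called. Both differences were also called with the 36 cells led by the rule genes (Btg2 3.11, adjusted p = 0.0121, Junb 3.56, adjusted p = 0.0144). The Junb and Btg2 calls were lost when 1 of 3 animals was left out. The adjusted p of Junb and Btg2 was 0.459 and 0.0769 without the first animal lacking inhibitors, 0.182 and 0.0724 without the first animal with inhibitors, and 1 for both without the second. Vtn differed by -1.68 ± 0.40 (adjusted p = 0.0451) and was at -0.32 (adjusted p = 1) with the 36 cells, which Vtn UMIs helped to choose. Its adjusted p was 1 when the first animal lacking inhibitors or either animal with inhibitors was left out.

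Mt3 (the brain metallothionein, chromosome 8, 94152607 to 94154146, plus strand) showed the largest of the 4 called differences against endothelial-gated cells, 5.07 ± 0.77 (adjusted p = 3.72e-06). Its UMIs in VSMCs were 8 and 126 without and 1 and 1 with inhibitors, and 122 of the 126 came from the 2 ependymal-led cells. Without these cells the difference was 2.14 (adjusted p = 1). Leaving out the second animal lacking inhibitors gave 2.85 (adjusted p = 0.999), and leaving out the first or second animal with inhibitors gave an adjusted p of 0.0724 or 0.0692. The same 2 cells gave 43 of 45 Nnat, 24 of 25 Ccdc153 and 203 of 222 Dbi UMIs of that animal.

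For Fos the difference between classes was not called. Endothelial-gated cells had a Fos effect of their own, 48.5 and 30.3 CPM without and 1.11 and 9.37 CPM with inhibitors (log2 fold change 2.68 ± 0.42 SE, adjusted p = 9.26e-04), at levels below those of VSMCs in each animal. The difference to VSMCs was 1.78 ± 1.01 (adjusted p = 1). Pericyte-gated cells had 8 Fos UMIs, all from 1 cell of the second animal without inhibitors, which is too few to estimate a difference. Among the 827 genes tested in pericyte-gated cells alone none was called by edgeR, with 36 at an unadjusted p below 0.05.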

How the data were processed

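Droplet libraries of single cells (3′ UMI chemistry) were measured in 4 mice. The deposited matrices hold UMI counts per gene and cell, which the authors made with Cell Ranger 3.0.0 on mm10 (GRCm38), per the labels and the study's methods, and they hold cell calls without annotation. Counts were not normalized before deposit.

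Cells were filtered and gated as the report states, then UMI counts were summed per animal and class and compared by the edgeR 4.0.16 package of R 4.3.3 (TMM scaling, filterByExpr, robust quasi-likelihood fit, group as the only term). The interaction fits added the animal as a block. Each SE is an approximation, the absolute log2 fold change divided by the square root of the F statistic of the test. CPM values are UMI counts of a gene scaled to the UMI total of the summed class. Thinning drew 1000 UMIs per cell. Doublets were scored from 20 nearest neighbours among simulated pairs and kept. Alternatives were DESeq2 1.42.0, no TMM, no filter on low counts, a fit without robust weights, the replicate number as a block and each library left out. Alternative cell sets were a stricter rule, cells with none of Kcnj8, Abcc9, Higd1b and Atp13a5, a stricter barcode filter (600 genes, 10% mitochondrial) and doublets removed. The stricter rule asked for at least 4 rule genes and fewer than 2 endothelial markers. Its endothelial limit was also set on pericyte-gated cells. Added after seeing the data were the cells led by the rule genes and the removal of cells with at least 4 ependymal genes. The scripts were tested on simulated data.

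Named genes were the called genes, 14 fixed activation genes, the 4 highest tested members of each list, and the 20 highest ratios with 10 CPM added on both sides. A gene that this rule names is not reported here. The members and lists were chosen with earlier results of these data known, and the activation list came from the study. Of the vasoactive list Gucy1a3 and Gucy1b3, and of the transcription list Mrtfa and Mrtfb, were not found under these symbols. The replicates are separate animals. A chi-square of counts per degree of freedom between libraries ran from 1.40 to 2.21, above the 1 that sampling noise alone gives. Gene positions are those of GENCODE for GRCm38, and promoters those of RefSeq. Python 3.11.15 was used for the other steps.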

Additional observations from a re-analysis of the deposited data

Results flagged for a closer look

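In 4 genes the inhibitor effect differed between VSMCs and another class by the interaction test in edgeR, which gave 6 differences in all. Btg2 differed by 3.46 on the log2 scale against pericyte-gated cells and by 2.91 against endothelial-gated cells, at 1684 and 560 CPM without and 251 and 90.8 CPM with inhibitors in VSMCs. Junb differed by 3.70 against endothelial-gated cells. Vtn differed by -1.55 against pericyte-gated and by -1.68 against endothelial-gated cells, and in the 36 cells led by the rule genes these values were -0.22 and -0.32. Vtn UMIs took part in choosing the 36 cells. Mt3 differed by 5.07 against endothelial-gated cells, and by 2.14 without the 2 cells that carry ependymal genes. Groups of 2 animals are too small for a search for single samples that stand apart.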

How the results depend on the processing

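With 2 animals per group and 9 to 18 cells per animal, counting error and 1 animal can set a call. In the fit with group alone 1 gene was called in VSMCs, against 2 by DESeq2, 6 with no filter on low counts (5 higher) and 5 under the stricter rule (4 higher). There were 2 calls in cells with none of Kcnj8, Abcc9, Higd1b and Atp13a5, and 4 in cells led by the rule genes. With the stricter barcode filter or with doublets removed there were 0. Leaving out 1 animal gave 3 to 11 calls: 11 without the first animal lacking inhibitors, among them the ependymal genes Ccdc153 and Rarres2, 10 without the second, 3 without the first animal with inhibitors and 9 without the second. Fos was called in each of these 4 fits. Labels number the replicates 1 and 2 in both groups without saying that they pair. With the replicate block 1 gene was called, Fos (log2 fold change 4.70, adjusted p = 0.0414), and the deviations of same-numbered animals correlated at -0.0799.

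The differences called against pericyte-gated cells numbered 2, against 0 with cells led by the rule genes, 4 with no filter on low counts, 7 without robust weights, 8 without TMM, 4 under the stricter rule and 0 to 4 when 1 animal was left out. Against endothelial-gated cells they numbered 4, against 2 with cells led by the rule genes, 2 without the cells with ependymal genes and 0 to 7 when 1 animal was left out. The difference in VSMC share turned to -0.0302 percentage points under the stricter rule and ran from -0.0922 to 0.172 when 1 animal was left out.

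Among list medians, which had no test, over the alternatives that kept all animals contractile genes ran from -0.25 to 0.24, ion channels -0.89 to 0.15, transcription and Notch -0.32 to 0.0224, matrix -0.61 to 0.19, BMP and TGF-beta -0.29 to 0.66, pericyte markers -1.43 to 0.11, astrocyte markers -1.26 to 0.38 and oligodendrocyte markers -0.82 to 0.0590. When 1 animal was left out, contractile genes ran from -0.25 to 0.41 and the vasoactive list from -0.60 to 0.13. The contractile list includes the rule genes, so its medians are not read as a comparison of the groups. The reversals of single genes were log2 fold changes of genes that were not called. They were Id3 0.0032 and Cryab -0.0024 by DESeq2, Mef2c -0.0529 and Cryab -0.0615 without TMM, Pde3a 0.0092 and Id3 0.0295 with no filter, and Id3 0.0044 with the replicate block. Under the stricter rule they were Rgs4 0.0227, Pde3a 0.14, Hspa8 -0.14 and Cryab -0.0834. In cells with none of the defining pericyte genes they were Myl9 -0.15, Tagln -0.57 and Pln -0.89. Under the stricter barcode filter they were Rgs4 0.42, Mef2c -0.0668, Hspa8 -0.20 and Cryab -0.41. With doublets removed they were Tagln -0.0309 and Cryab -0.0103. In cells led by the rule genes they were Tagln -0.0534, Notch3 0.0032, Hspa8 -0.0061, Vtn 0.11, Higd1b 0.0476, Ndufa4l2 0.56 and Cryab -0.15. Without the cells with ependymal genes they were Rgs4 0.0241, Pde3a 0.0982, Hspa8 -0.15, Id3 0.0016 and Cryab -0.12. Leaving out 1 animal gave ranges of -0.12 to 0.34 for Myl9, -0.14 to 0.24 for Tagln, -0.25 to 0.33 for Mef2c, -1.78 to 0.16 for Ndufa4l2, -0.28 to 0.13 for Rgs4, -0.60 to 0.63 for Pde3a, -0.30 to 0.55 for Hspa8, -0.21 to 0.26 for Id3, -0.40 to 0.64 for Cryab, -0.0263 to 0.66 for Ttr, -0.0689 to 0.29 for Pln and -1.02 to 0.13 for Sparc. The cause of these changes was not tested. Those of Myl9 and Tagln are not read as a comparison of the groups, since the rule used both genes.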
